A study of Mus musculus with 120 samples.

Results

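The collagen chains of the mouse were taken as all genes of the count tables whose symbol has the form Col, a number, a and a number, such as Col4a1. The rule found 44 chains among the 23154 genes of each table and used no measured value. The RNA counts cover 28 libraries, 18 from embryo pieces and 10 from E14 (E14/TG2A), a line of mouse embryonic stem cells. After a filter on low counts, 33 chains could be tested in embryos among 14403 genes and 35 in cells among 14629, and 29 chains were tested in both. The 11 and 9 chains left out stayed too low to be tested, and Col6a6, Col10a1 and Col28a1 never reached 10 counts in a library. Embryos were of the ICR strain, an outbred stock, and carried no allele or treatment named in the labels. Extra-embryonic tissue (ExE) was taken at the stages E6.5, E7.0 and E7.5, in days of gestation. The rest of the embryo was kept whole at E6.5 (Epi), split in regions labelled A and P at E7.0, and split in A, P and a further region AM at E7.5. Each of these 9 groups has 2 libraries. The cells were unedited (WT, 2 libraries a day) or lacked Enh9E, an enhancer removed with CRISPR-Cas9 (KO, 3 libraries a day). They were taken undifferentiated (D0) or as neural progenitors on day 8 of differentiation (D8). Whether embryos were pooled and whether the KO replicates are separate clones is not stated in the sources used here, so the p-values measure the spread between these libraries, which may in part be technical.

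A collagen molecule is a trimer of chains wound around each other. Fibrillar collagens build the fibers of connective tissue, fibril-associated collagens decorate them, and type IV collagens form the sheet-like network of basement membranes, the thin layers on which epithelia rest. In the early mouse embryo a basement membrane lies between the epiblast and the visceral endoderm, and the parietal endoderm makes a thick one, Reichert's membrane. Inside the cell, prolines and lysines of the chains are hydroxylated, chaperones hold the folding trimer, and enzymes outside the cell trim and crosslink it.

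The genes of partner type IV chains lie next to each other, and their start regions are shown because the members of each pair moved together in the results. Sequences and positions are from RefSeq's GRCm38.p6 tables, the assembly of the build mm10 that the submitters' processing notes name. Annotated promoter windows were at hand for 35 of the 44 chains. Col4a1, on the minus strand of chromosome 8, and Col4a2, on the plus strand, had starts 21 bases apart in the promoter table, so that the first bases of their transcripts overlapped. The gene table extends Col4a1 further, to a start 84 bases from that of Col4a2. In the run of 30 bases at chr8:11312801-11312830, plus strand, the capitals mark the 22 bases from the Col4a2 start to the Col4a1 start of the promoter table.

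Col4a1 and Col4a2: cggcAGTGCGCGGGCGGCGTCTCCAAgggg

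Col4a5 (plus strand) and Col4a6 (minus strand) face away from each other on the X chromosome, with outermost annotated starts 1275 bases apart in the gene table and starts 1343 bases apart in the promoter table. Col18a1, a basement membrane collagen on the minus strand of chromosome 10, is set beside them because it fell over differentiation while they rose. Each run is the sequence before the outermost annotated start, read in the direction of its gene, at chrX:141475169-141475369, chrX:141474096-141474326 and chr10:77166531-77166780. Capitals mark matches to CCAAT (the CCAAT box) or GGGCGG (the GC box) on either strand, and the Col4a6 run ends inside a GC box. The promoter table's Col4a5 start lies 49 bases inside the gene, beyond the end of the run.

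Col4a5: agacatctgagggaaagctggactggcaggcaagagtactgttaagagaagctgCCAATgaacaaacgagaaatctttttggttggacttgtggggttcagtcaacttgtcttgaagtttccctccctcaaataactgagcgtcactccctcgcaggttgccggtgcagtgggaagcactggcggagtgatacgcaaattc

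Col4a6: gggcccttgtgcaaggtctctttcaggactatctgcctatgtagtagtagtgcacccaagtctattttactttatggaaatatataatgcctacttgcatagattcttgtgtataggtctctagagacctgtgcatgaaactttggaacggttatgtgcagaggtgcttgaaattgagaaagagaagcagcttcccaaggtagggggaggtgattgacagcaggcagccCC

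Col18a1: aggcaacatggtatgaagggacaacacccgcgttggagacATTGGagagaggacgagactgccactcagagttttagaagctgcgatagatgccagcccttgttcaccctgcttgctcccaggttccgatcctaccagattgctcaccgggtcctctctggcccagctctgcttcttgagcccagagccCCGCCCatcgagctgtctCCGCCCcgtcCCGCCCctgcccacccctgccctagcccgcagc

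In the 250 bases before a start of the promoter table, GGGCGG was found in 22 of the 38 collagen windows and in 32.7% of all 32851 windows of the table. CCAAT was found in 13 of the 38 windows and in 33.8% of all, and TATAAA in 5 of the 38 and in 12.4% of all. Both strands were searched and matches of different motifs could overlap. Of Col4a1, Col4a2, Col4a5, Col4a6, Col18a1, Col23a1 and Col27a1, GGGCGG stood before the promoter table's start of all but Col4a1, and CCAAT before that of Col4a1, Col4a2, Col4a5 and Col18a1. The GGGCGG of Col4a5 lies between the outermost start and the promoter table's start, and so is not in the run above. A match describes the letters only.

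The total number of counts in a library ran from 5.15 to 17.1 M in embryos and from 5.96 to 13.2 M in cells. Levels are CPM, counts per 1 M counts of the library, with TMM scaling, which evens out differences in RNA composition between libraries. They are not divided by transcript length, so they are compared between libraries and not between chains. A change is a log2 fold change with its standard error, tested with edgeR's quasi-likelihood test, and a chain is said to rise or fall where the Benjamini-Hochberg adjusted p over all tested genes was under 0.05. In these bulk samples fewer cells of a type and less RNA per cell cannot be told apart.

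Marker lists were read as a check of the labels. The extra-embryonic ectoderm list summed to 163 to 426 CPM in ExE and 17.9 to 224 CPM in the embryonic parts, with ExE the highest within each stage, and the naive stem cell list to 5216 to 5861 CPM at D0 and 51.6 to 245 CPM at D8. The visceral endoderm list, 9 genes such as Ttr and Apoa1, summed to 5278 to 16680 CPM in ExE, and in the embryonic parts it ranged from 14.5 CPM in E7.5 A replicate 1 to 7570 CPM in E7.5 AM replicate 2.

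Across the embryo, collagen transcripts were a small part of the RNA, from 0.00878% to 0.0314% of the counts of a library, and Col4a1 and Col4a2 together gave 24.2 to 82.3% of them. In the stem cells the share was 0.0483 to 0.0543% at D0. At D8 it was 0.124 and 0.233% in the WT libraries and 0.483 to 0.858% in the KO libraries. Col18a1 gave 31.0 to 54.7% of collagen counts in the D0 libraries and 1.03 to 2.90% in the KO D8 libraries. These shares are of counts, in which longer transcripts weigh more.

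**Figure D1:**
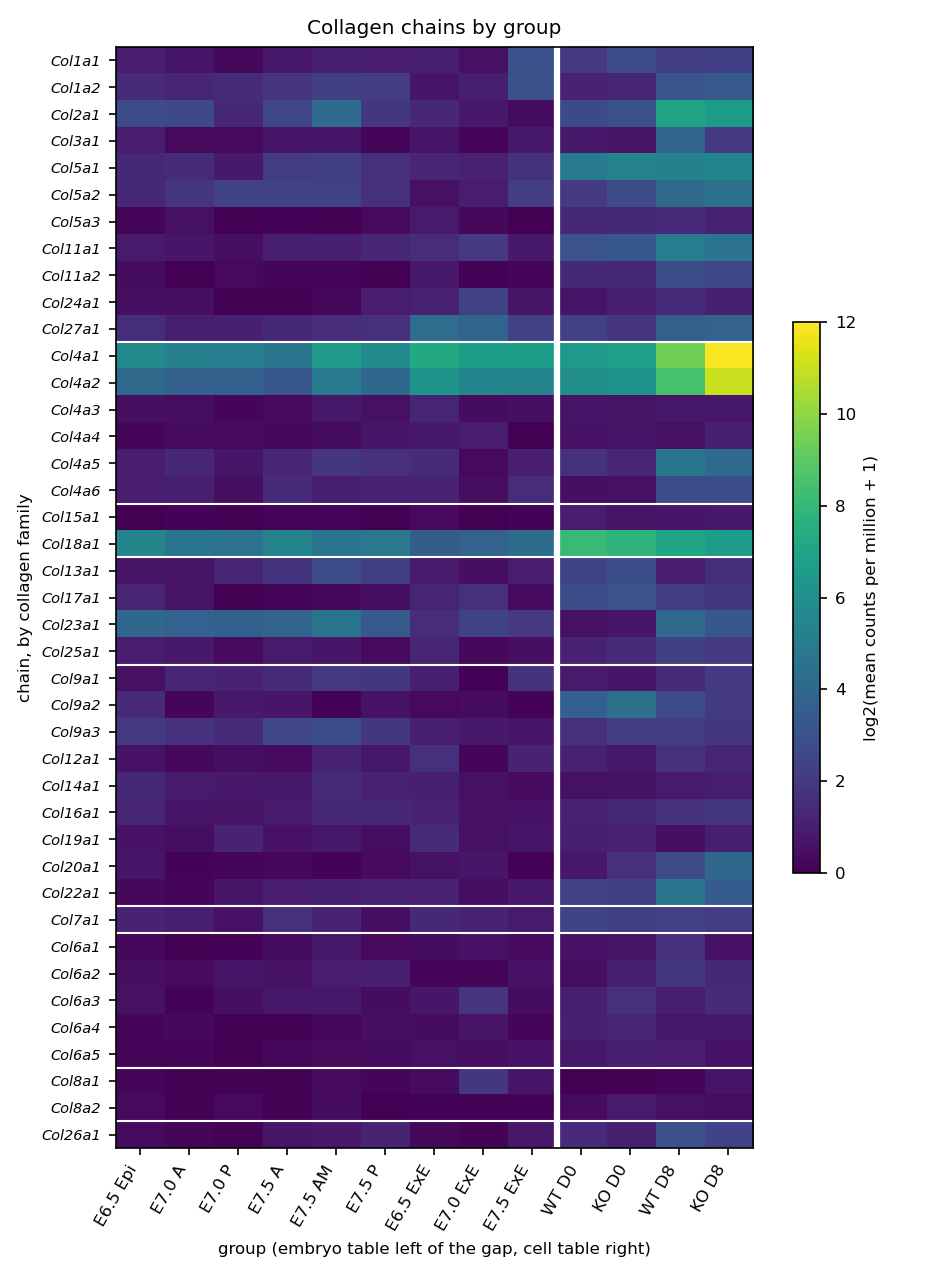
Mean level of 41 collagen chains (rows, by collagen family, white lines between families) in 9 embryo groups and 4 cell groups (columns), on the scale log2(mean CPM + 1). The color is to be read along a row, since levels are not divided by length, and the tables left and right of the gap were scaled separately. Col4a1 and Col4a2 are brightest in KO D8, with means of 3826 and 2114 CPM.

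Whether extra-embryonic and embryonic tissue differ in their collagens was asked at each stage. At E6.5 the type IV pair and Col27a1 were higher in ExE, and Col18a1 and Col23a1 were lower. These 5 of 33 tested chains compare with 8.93% of all tested genes called in either direction (3.69% higher, 5.24% lower). The median log2 fold change was 0.37 over the tested chains and 0.03 over all tested genes.

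Col4a1 encodes the chain that, with the product of Col4a2, makes the main network of embryonic basement membranes. It stood at 155 and 156 CPM in E6.5 ExE and at 37.8 and 62.8 CPM in Epi. The groups did not overlap, and the log2 fold change was 1.63 ± 0.35 (SE, n = 2 and 2, adjusted p = 0.0081). Col4a2 stood at 69.7 and 75.0 CPM in ExE and at 8.79 and 24.7 CPM in Epi, a log2 fold change of 2.11 ± 0.52 (adjusted p = 0.0174). The pair was also higher in ExE at the later stages. At E7.0 Col4a1 was 105 and 107 CPM in ExE and 29.2 to 42.7 CPM over A and P, with a log2 fold change of 1.59 ± 0.29 (adjusted p = 0.00149). Col4a2 was 41.9 and 40.2 CPM in ExE against 8.80 to 15.9 CPM, 1.77 ± 0.42 on the log2 scale (adjusted p = 0.00861). At E7.5 the AM levels came close to those of ExE. Col4a1 was 100 and 101 CPM in ExE, 62.0 and 108 CPM in AM, 41.6 and 64.0 CPM in P and 20.5 and 29.3 CPM in A, so that ExE and the embryonic libraries overlapped, and the log2 fold change from the mean of the 3 regions was 1.06 ± 0.27 (adjusted p = 0.0101). Col4a2 in ExE, 42.5 and 43.9 CPM, lay above all 6 embryonic libraries, which ran from 3.90 to 35.8 CPM (1.47 ± 0.38 on the log2 scale, adjusted p = 0.0121).

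The other type IV chains stayed low in the embryo and were not called in any of the 9 embryo comparisons. Col4a5 ranged from 0 to 3.37 CPM and Col4a6 from 0 to 2.94 CPM over the 18 libraries. The ratio of Col4a1 to Col4a2 counts, with no correction for length, was 2.08 to 2.66 in the 6 ExE libraries and 2.23 to 5.25 in the 12 embryonic ones.

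Among the fibrillar collagens, Col27a1, a chain known from cartilage, was high in early ExE. Its levels were 14.5 and 22.0 CPM in E6.5 ExE, 8.58 and 18.7 CPM in E7.0 ExE, 4.06 and 3.91 CPM in E7.5 ExE, and 0.635 to 2.39 CPM in every embryonic library. The log2 fold changes were 3.22 ± 0.65 at E6.5 (adjusted p = 0.00498) and 3.67 ± 0.53 at E7.0 (adjusted p = 0.000216). At E7.5 the value was 1.14 ± 0.48 with an adjusted p of 0.1, although the 2 ExE libraries still lay above all embryonic ones. The direct comparison of E7.5 with E6.5 ExE gave -2.19 ± 0.62 (adjusted p = 0.113). Col1a1, a chain of the type I collagen of connective tissue, was high in late ExE. It was 8.91 and 4.10 CPM in E7.5 ExE, at most 1.57 CPM in the embryonic libraries of that stage and 0.328 to 1.13 CPM in the earlier ExE libraries. At E7.5 it rose by 2.88 ± 0.63 on the log2 scale over the embryonic regions (adjusted p = 0.00407). Its partner Col1a2 was 7.00 and 6.78 CPM in E7.5 ExE and 0.450 and 0.705 CPM in E6.5 ExE, a log2 difference of 3.58 ± 1.14 that did not pass (adjusted p = 0.171).

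Col2a1, the main fibrillar collagen of cartilage and notochord, was lower in ExE. It fell by 4.15 ± 0.69 on the log2 scale at E7.5 (0.477 and 0.191 CPM in ExE, 2.36 to 22.0 CPM in the embryonic libraries, adjusted p = 0.000587). At E7.0 the log2 fold change was -1.93 ± 0.63 (0.656 and 0.900 CPM against 1.02 to 7.66 CPM, adjusted p = 0.0429), and at E6.5 it was -1.87 ± 0.64 (adjusted p = 0.0802). Chains that accompany type II fibrils went the same way where they were called. Col9a3 fell by 2.80 ± 0.79 at E7.5 (0.954 and 0.286 CPM against 1.99 to 8.61 CPM, adjusted p = 0.0186). Col9a1 was lower at E7.0, where ExE held 3 counts in all against 55 in A and P (adjusted p = 0.0365). Where not called they did not all go this way. Col9a1 was 3.90 and 0.764 CPM in E7.5 ExE against 1.03 to 3.84 CPM. Col11a1 was 1.71 and 2.11 CPM in E6.5 ExE against 1.26 and 0.396 CPM in Epi.

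The transmembrane collagen Col23a1 was lower in ExE at every stage. It was 1.71 and 2.11 CPM in E6.5 ExE against 10.3 and 18.7 CPM in Epi (log2 fold change -2.93 ± 0.58, adjusted p = 0.00412). It was 4.76 and 3.96 CPM at E7.0 against 12 to 12.8 CPM (-1.49 ± 0.49, adjusted p = 0.0431), and 2.23 and 3.82 CPM at E7.5 against 5.12 to 31.6 CPM (-2.30 ± 0.50, adjusted p = 0.00378). The ExE libraries lay below all embryonic libraries of their stage. Col18a1, which carries the endostatin fragment and belongs to basement membranes, was 7.47 and 14.1 CPM in E6.5 ExE and 31.4 and 58.9 CPM in Epi, a log2 fold change of -2.07 ± 0.53 (adjusted p = 0.0205). It was not called at E7.0 (9.07 and 16.6 CPM against 19 to 28.4 CPM) or at E7.5 (21.3 and 14.4 CPM against 17.4 to 57.7 CPM), and at E7.5 the groups overlapped.

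**Figure D2:**
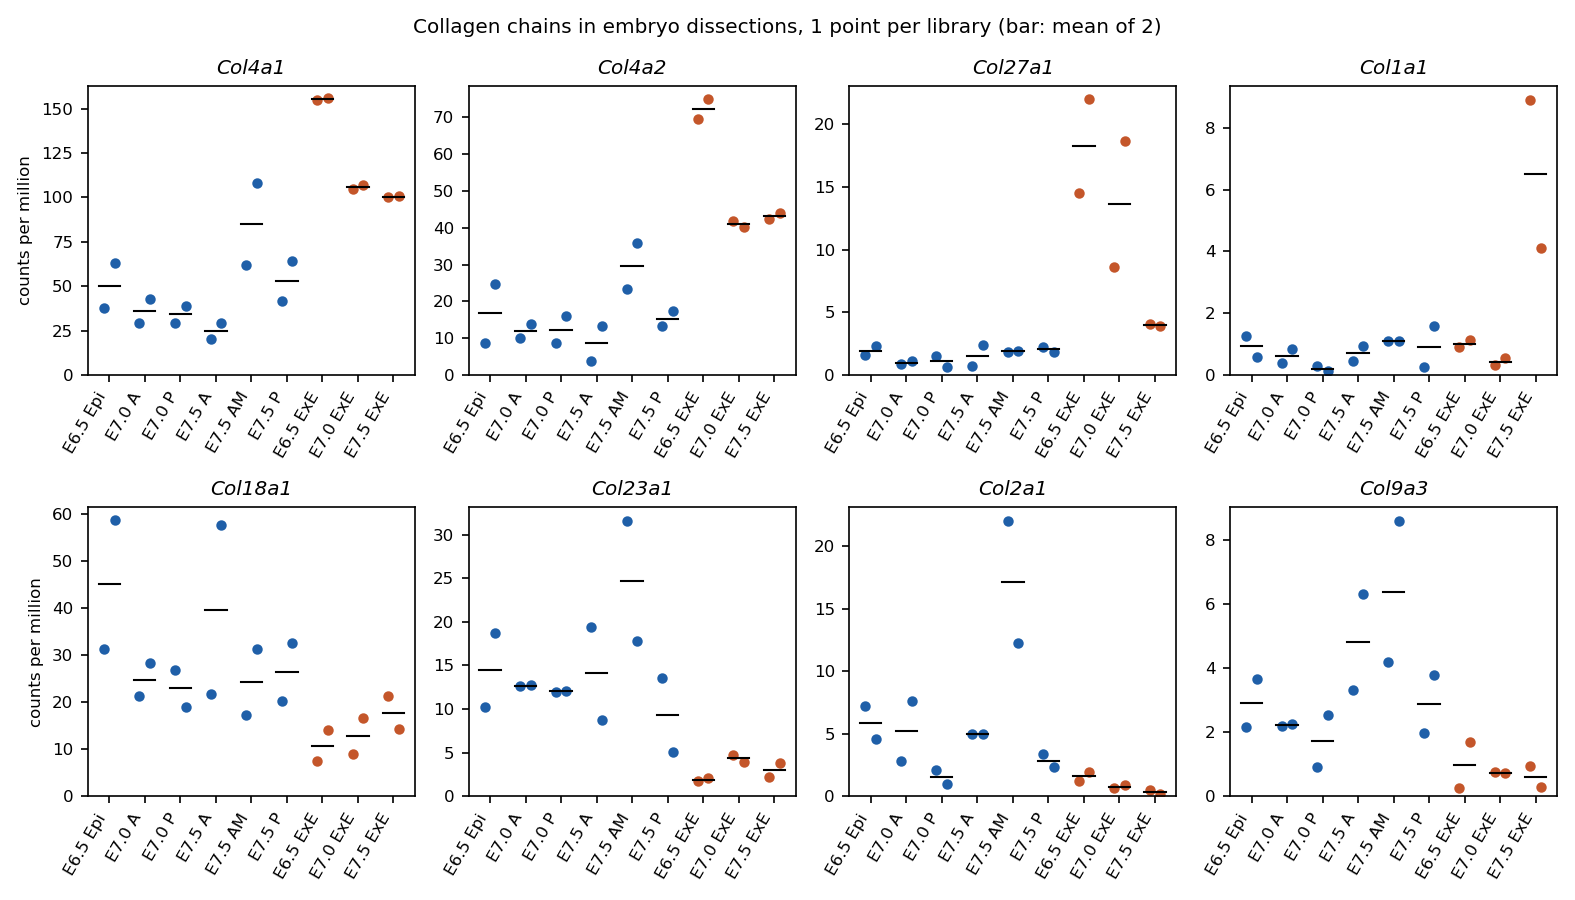
Levels of 8 collagen chains in CPM (y axis from 0, own scale in each panel) in the 9 embryo groups (x axis). Each point is 1 library, blue for embryonic and orange for ExE, and the bar is the mean of 2. Col4a1, Col4a2 and Col27a1 are high in ExE, Col1a1 in E7.5 ExE, and Col23a1 and Col2a1 are low in every ExE group.

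At E7.0 and E7.5, 9 and 6 chains were called between ExE and the embryonic regions. At E7.0, 6 rose and 3 fell among 33, against 10% of all genes higher and 8.14% lower (18.2% in either direction). At E7.5, 3 rose and 3 fell, against 13.4% higher and 7.91% lower (21.3% in either direction). The medians over the tested chains were -0.41 and -0.28, and over all tested genes -0.04 and -0.02. Of the 6 that rose at E7.0, the remaining 3, Col8a1, Col17a1 and Col24a1, rested on E7.0 ExE replicate 2, the library with the lowest total (5.15 M). Col24a1, a fibrillar chain, was 8.10 CPM there and 0.109 CPM in replicate 1, with 0 to 0.709 CPM over A and P. Col8a1, a short-chain network collagen, was 5.40 and 0.109 CPM against 0 to 0.127 CPM. Col17a1, a chain of the structures that fix epithelial cells to their basement membrane, was 3.96 and 0.383 CPM against 0 to 0.851 CPM. All 3 ranges overlapped those of the embryonic libraries and none was called without that library. The log2 fold change of Col17a1 was then 2.41, and Col24a1 and Col8a1 had too few ExE counts left for a fold to be read. The calls of these 3 were also lost without A replicate 1 or P replicate 1, and those of Col17a1 and Col24a1 without P replicate 2 (adjusted p = 0.0604 to 0.106). Col11a1 and Col6a3 were also high in that library, at 5.76 and 5.22 CPM against 0.273 and 0.109 CPM in replicate 1.

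With pairs of libraries, many of these calls were lost when 1 library was left out. A lone library then stands for its group, so a lost call need not mean that the library left out decided it. Col23a1 at E7.0, for 1, kept a log2 fold change of -1.59 to -1.40. The number of all genes called also moved with the library left out, so the lost calls are not shown to be particular to the chains. At E6.5, leaving out Epi replicate 1 left 2 calls and replicate 2 left 4, while leaving out replicate 1 of ExE left 1 and its replicate 2 left 2. Each of the 5 chains lost its call at least once, and Col4a1 kept a log2 fold change of 1.28 to 2.03 with adjusted p up to 0.178. At E7.0, Col4a1, Col4a2 and Col27a1 passed with each library left out, while Col9a1 and Col23a1 lost their call without any of the 6 libraries and Col2a1 without ExE replicate 1 or 2, A replicate 2 or P replicate 1 (adjusted p = 0.0509 to 0.184 over these). At E7.5, Col2a1 and Col23a1 passed with each library left out. There, Col4a1 and Col4a2 were lost without ExE replicate 1 (adjusted p = 0.0916 and 0.0869) or 2 (0.110 and 0.129), Col1a1 without ExE replicate 1 (log2 fold change 2.10, adjusted p = 0.131) and Col9a3 without ExE replicate 2 (-2.23, adjusted p = 0.249).

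Within the embryonic part, 1 call was made. Col4a1 was higher in AM than in A at E7.5 by 1.78 ± 0.36 on the log2 scale (62.0 and 108 CPM against 20.5 and 29.3 CPM, adjusted p = 0.0148), 1 of 33 chains against 1.15% of all genes called higher, 0.417% lower and 1.57% in either direction. Col4a2 did not pass (23.3 and 35.8 CPM against 3.90 and 13.2 CPM, 1.81 ± 0.52, adjusted p = 0.101). The Col4a1 call was lost without AM replicate 2 (1.28, adjusted p = 0.241) or A replicate 1 (1.5, adjusted p = 0.287). Col2a1 was also highest in AM, with 22.0 and 12.3 CPM, against 4.96 and 4.95 CPM in A and 3.37 and 2.36 CPM in P. Its differences of 1.78 ± 0.60 from A (adjusted p = 0.190) and 2.57 ± 0.63 from P (adjusted p = 0.191) did not pass. The node and notochord list, 5 genes, summed to 194 and 47.9 CPM in AM and 34.9 and 13.6 CPM in P, in the order of Col2a1 within both. In A it summed to 6.53 and 44.6 CPM, where Col2a1 was 4.96 and 4.95 CPM. In E7.0 P it summed to 46.7 and 58.4 CPM, near or above AM replicate 2, where Col2a1 was 2.13 and 1.02 CPM. The part of this list in the Col2a1 levels was not tested.

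Within the embryonic groups the visceral endoderm list moved with the type IV pair. In all 6 of them the library with the higher list also had more Col4a1 and more Col4a2. In 5 of the 6 it also had more Col18a1. The same was not counted over all genes, so it is not shown to be particular to these chains. In E7.5 A the list summed to 14.5 and 587 CPM, in AM to 1457 and 7570 CPM and in P to 597 and 6880 CPM, where Col4a1 was 20.5 and 29.3, 62.0 and 108, and 41.6 and 64.0 CPM. The library with the higher list was replicate 2 in each of the 6 embryonic groups, so that the list and the replicate number cannot be told apart. In ExE, Col4a1 was higher in the library with the higher list in 2 of 3 groups. At E7.0 the list summed to 7046 and 5278 CPM in ExE, where Col4a1 was 105 and 107 CPM. The list went from 5429 and 7649 CPM in E6.5 ExE to 13863 and 16680 CPM in E7.5 ExE. Over the same stages Col4a1 in ExE went from 155 and 156 CPM to 100 and 101 CPM. At E6.5 the list overlapped between ExE (5429 and 7649 CPM) and Epi (3608 and 6016 CPM), and Col4a1 and Col4a2 did not. In AM and A the list, like Col4a1, did not overlap. The parietal endoderm list, 6 genes led by Sparc, summed to 470 to 688 CPM in ExE and 151 to 492 CPM in the embryonic parts, though Thbd, a defining member, stayed at or under 0.762 CPM in every embryo library. The part of these cells in the type IV levels was not tested.

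No collagen chain was called in 5 comparisons of the embryo with edgeR's test. Between P and A, 2 of 33 chains at E7.0 and 2 at E7.5 had an unadjusted p under 0.05, as had 492 and 1080 of all 14403 genes. The share of all genes called was 0.00694% and 0.236% (at E7.5 0.201% higher and 0.0347% lower). DESeq2, another count test, called 0 and 0 chains. Between AM and P at E7.5, 2 chains and 929 of all genes had an unadjusted p under 0.05. Of all genes 0.111% were called (0.0417% higher, 0.0694% lower), and DESeq2 called 1 chain. Over time, E7.5 against E6.5 ExE gave 6 chains and 1930 of all genes at an unadjusted p under 0.05. Of all genes 0.972% were called (0.93% higher, 0.0417% lower), and DESeq2 called 3 chains. The E7.5 embryonic regions against Epi gave 4 chains and 2162 of all genes at an unadjusted p under 0.05. Of all genes 2.63% were called (1.07% higher, 1.56% lower), and DESeq2 called 1 chain.

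Some genes that process collagen also differed between ExE and the embryonic parts. Of the 9 tested genes for chaperones and export, 2 were higher and 1 lower at E6.5, 2 and 2 at E7.0, and 2 and 0 at E7.5. Over all tested genes 3.69% were higher and 5.24% lower at E6.5, 10% and 8.14% at E7.0, and 13.4% and 7.91% at E7.5, and these shares are the background of every such count in ExE. Serpinh1, the collagen chaperone HSP47, was 19.5 and 12.5 CPM in E6.5 ExE against 2.51 and 5.05 CPM in Epi (2.08 ± 0.47 on the log2 scale, adjusted p = 0.0104). Sparc, a collagen-binding matrix protein that also stands in the parietal endoderm list, was 338 and 542 CPM against 118 and 193 CPM (1.5 ± 0.41, adjusted p = 0.0296). Fkbp10, a folding enzyme of fibrillar collagen, was lower, at 0.360 and 0.564 CPM against 11 and 12.6 CPM (-4.68 ± 1.02, adjusted p = 0.00822).

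Of 11 tested genes for propeptide removal and crosslinking, 1 was higher and 1 lower in ExE at each stage, and they were the same pair. Bmp1, the protease that removes the end piece of fibrillar chains, was 18.3 and 21.1 CPM in E6.5 ExE and 1.94 and 3.77 CPM in Epi (2.78 ± 0.51, adjusted p = 0.00245). Pcolce2, which helps that protease, was 0.0899 and 0.141 CPM in ExE and 11 and 10.7 CPM in Epi, with 2 counts and 204 counts in all. It was higher in E7.5 than in E6.5 ExE, at 3.58 and 1.62 CPM. Of 6 tested collagen-cutting enzymes and inhibitors, the counts of genes above and below the embryonic level were 0 and 1 in ExE of E6.5, 2 and 2 at E7.0, and 1 and 0 at E7.5. Mmp2, a gelatinase, was 0.180 and 0 CPM in E6.5 ExE against 8.90 and 7.43 CPM in Epi, and reached 12.6 and 6.68 CPM in E7.5 ExE. Of the 13 tested enzymes that modify chains, 0, 2 and 1 were higher and 0 lower at the 3 stages, near or below the shares over all genes. P4ha1, a subunit of the enzyme that hydroxylates prolines, was higher at E7.0 (99.3 and 93.1 CPM against 38.4 to 65.0 CPM, 0.96 ± 0.23, adjusted p = 0.00921), and Crtap, part of a complex that modifies prolines, at E7.0 (1.56 ± 0.41, adjusted p = 0.0149) and E7.5 (1.23 ± 0.37, adjusted p = 0.0269). Of the 8 tested collagen receptors, 1 was lower at E7.0 and none was called at E6.5 or E7.5. It was Mrc2, which takes up collagen, with 2 counts in ExE and 201 in A and P.

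In cells, more collagen chains rose than fell between D0 and D8. In WT cells 18 of 35 tested chains rose and 3 fell, against 27.9% of all genes higher and 29.3% lower (57.2% in either direction). In KO cells 16 rose and 4 fell, against 33.4% higher and 31.1% lower (64.5% in either direction). The median log2 fold change over the tested chains was 1.47 in WT and 0.90 in KO, and over all tested genes -0.05 and 0.05. The WT and KO comparisons share no library. In both, 15 chains rose, which is 83.3% of those that rose in WT and 93.8% of those in KO. The same overlap was not counted over all genes, so these shares are not shown to be particular to collagen chains. Those that rose in WT alone were Col6a2, Col24a1 and Col25a1, and in KO alone Col9a1. Named after their values were seen, none of these 4 had a called difference between the WT and KO changes, and the WT calls of Col24a1 and Col25a1 were lost without WT D0 replicate 1 or WT D8 replicate 2, and that of Col24a1 without WT D0 replicate 2 (adjusted p = 0.058 to 0.21).

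By family, 8 of 11 fibrillar and 4 of 4 tested basement membrane network chains rose in WT, and 7 of 11 and 4 of 4 in KO. Col2a1 went from 4.57 and 6.51 CPM to 89.1 and 169 CPM in WT (4.55 ± 0.37 on the log2 scale, adjusted p = 2.33e-06) and from 5.38 to 8.77 CPM to 73.5 to 106 CPM in KO (3.75 ± 0.29, adjusted p = 1.06e-06). The D8 values of WT and KO overlapped. Col23a1, low in ExE, went from 0.617 and 0.289 CPM to 23.1 and 10.4 CPM in WT (5.12 ± 0.64, adjusted p = 4.76e-05) and from 0.343 to 1.19 CPM to 7.71 to 9.40 CPM in KO (3.56 ± 0.47, adjusted p = 6.29e-05). Its D8 difference, KO minus WT, was -0.96 ± 0.41 (adjusted p = 0.117). Col11a1 and Col5a2, chains that form mixed fibrils in young tissue, also rose in both. Col11a1 rose by 2.08 ± 0.37 in WT and 1.42 ± 0.29 in KO, and Col5a2 by 2.39 ± 0.38 and 1.88 ± 0.29. Col5a1, the partner of Col5a2, did not pass in either, with 27.8 to 43.8 CPM at D0 and 30 to 60.3 CPM at D8. Col1a2 rose by 2.58 ± 0.54 in WT and 2.77 ± 0.43 in KO, whereas Col1a1 was 2.72 to 6.56 CPM at D0 and 2.43 to 6.06 CPM at D8 and did not pass.

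The head-to-head pair on the X chromosome whose start regions are shown above rose in both lines. Col4a5 was 0.892 to 3.09 CPM in the 5 D0 libraries and 11 to 26.3 CPM in the 5 D8 libraries, with log2 fold changes of 3.42 ± 0.49 in WT (adjusted p = 0.000128) and 3.52 ± 0.41 in KO (adjusted p = 2.33e-05). Col4a6 was 0.289 to 0.595 CPM at D0 and 4.34 to 9.40 CPM at D8, rising by 3.92 ± 0.59 in WT (adjusted p = 0.000182) and 3.81 ± 0.46 in KO (adjusted p = 3.03e-05). D0 and D8 did not overlap for either chain, and KO and WT overlapped on each day for both.

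The chains that fell in both lines were Col18a1, Col13a1 and Col9a2, named after their values were seen. Col18a1 went from 277 and 285 CPM to 142 and 120 CPM in WT (-1.10 ± 0.34, adjusted p = 0.0170) and from 157, 245 and 237 CPM to 151, 61.6 and 86.2 CPM in KO (-1.09 ± 0.28, adjusted p = 0.00534). The WT call of Col18a1 was lost with any of the 4 libraries left out, with adjusted p of 0.0679 to 0.121. Col9a2, a chain of type IX collagen, went from 14.6 to 28.5 CPM to 2.11 to 4.63 CPM in KO (-2.73 ± 0.35, adjusted p = 5.28e-05) and from 14.3 and 9.69 CPM to 4.88 and 6.33 CPM in WT (-1.09 ± 0.42, adjusted p = 0.0425), a call lost with each of the 4 WT libraries left out. The transmembrane collagen Col13a1 fell by 2.24 ± 0.58 in WT (adjusted p = 0.00627, and 0.0678 without WT D8 replicate 2) and by 1.70 ± 0.42 in KO (adjusted p = 0.004). Col3a1 rose in both but rests on few counts, and in WT on 1 library. In KO D8 it was 2.64, 2.67 and 3.73 CPM, and the KO log2 fold change was 2.05 to 2.89 with 1 library left out. It was 27.3 CPM in WT D8 replicate 1 and 1.07 CPM in replicate 2, its WT log2 fold change of 4.12 was 0.53 without the former (adjusted p = 0.635). The WT call was also lost without WT D0 replicate 1 or 2 (adjusted p = 0.0512 and 0.0684), and its KO call was lost with each of the 6 KO libraries left out.

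**Figure D3:**
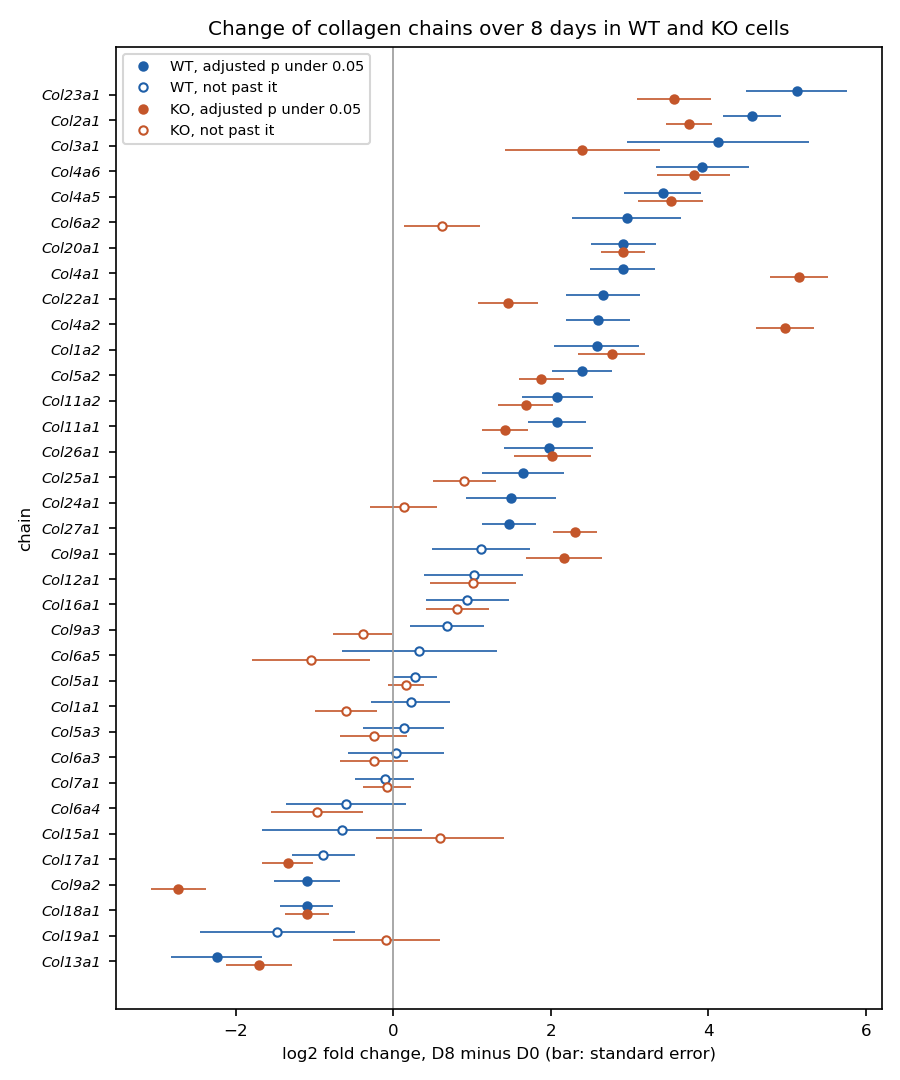
Log2 fold change from D0 to D8 (x axis) of the 35 collagen chains tested in cells (y axis, ordered by the WT value), with standard errors as bars. Blue is WT and orange KO, and filled points passed the adjusted p threshold of 0.05. Col4a1 and Col4a2 lie at 2.91 and 2.60 in WT and at 5.15 and 4.97 in KO.

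The labelled knockout concerns an enhancer, and the sources used here give neither its position nor its target gene, so no target level could be read as a check of the labels. Undifferentiated KO and WT cells showed no called collagen chain with edgeR's test, against 0.273% of all genes called (0.185% higher, 0.0889% lower). Of the 35 chains, 3 had an unadjusted p under 0.05, as had 2089 of all 14629 genes, and DESeq2 called 0 chains. Col4a1 was 88.3 to 128 CPM in KO and 101 and 78.3 CPM in WT at D0. Col20a1, a fibril-associated collagen, had the smallest p (1.78 to 2.29 CPM in KO against 0.864 and 0.579 CPM in WT, 1.5 ± 0.41, adjusted p = 0.144).

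On D8 the KO cells held far more type IV collagen transcript than WT cells. Col4a1 was 3118, 3279 and 5082 CPM in KO and 374 and 969 CPM in WT, with no overlap, a log2 fold change of 2.51 ± 0.38 (SE, n = 3 and 2, adjusted p = 0.00248). Col4a2 was 1623, 1797 and 2922 CPM in KO and 207 and 521 CPM in WT, 2.54 ± 0.39 on the log2 scale (adjusted p = 0.00243). WT replicate 2 was closer to KO than WT replicate 1 for both chains. The call of each held with every library left out, but the log2 fold change of Col4a1 was 1.88 without WT D8 replicate 1 and 3.30 without WT D8 replicate 2, and that of Col4a2 was 1.92 and 3.29. The pair kept a narrow count ratio of 1.42 to 1.92 over the 10 cell libraries, uncorrected for length, and gave 90.8 to 95.4% of collagen counts in KO D8 against 53.2 and 73.9% in WT D8. In all, 3 of 35 chains were higher, against 12.5% of all genes, and 1 was lower, against 8.24% (20.8% in either direction). This background also rests on single libraries, with 3039 genes called in all, 777 without WT D8 replicate 1 and 5463 without KO D8 replicate 1. The median log2 fold change over tested chains was -0.24, and over all tested genes 0.02.

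Outside the pair, Col20a1 was 12.5, 17 and 17.9 CPM in KO and 6.36 and 4.93 CPM in WT (1.49 ± 0.30, adjusted p = 0.00724). This difference was about as large at D0, given above, and was lost without WT D8 replicate 2 (1.25, adjusted p = 0.0692). Col22a1, another fibril-associated chain, known from tissue junctions, was 16.6, 6.68 and 7.87 CPM in KO and 30 and 20.7 CPM in WT (-1.29 ± 0.39, adjusted p = 0.0381). It was not called without KO D8 replicate 2 or 3 or either WT D8 library (adjusted p = 0.0651 to 0.199). The other type IV chains tested did not pass. Col4a5 differed by -0.57 ± 0.37 (adjusted p = 0.288) and Col4a6 by 0.01 ± 0.40 (adjusted p = 0.986). Without KO D8 replicate 1, 7 chains were called, 3 higher and 4 lower.

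The D8 difference was tested against the D0 difference. The KO minus WT log2 fold change was larger at D8 than at D0 by 2.24 ± 0.50 for Col4a1 (adjusted p = 0.0321) and by 2.37 ± 0.51 for Col4a2 (adjusted p = 0.0281), 2 of 35 chains higher and 0 lower against 3% and 2.76% of all genes (5.76% in either direction). The size depended on the WT D8 libraries, at 1.63 and 1.76 without replicate 1 and 3.04 and 3.14 without replicate 2. Both calls were lost without any of 8 of the 10 libraries, with adjusted p of 0.0538 to 0.130. The count over all genes, 843, ran from 7 without WT D0 replicate 2 to 3591 without KO D8 replicate 1.

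**Figure D4:**
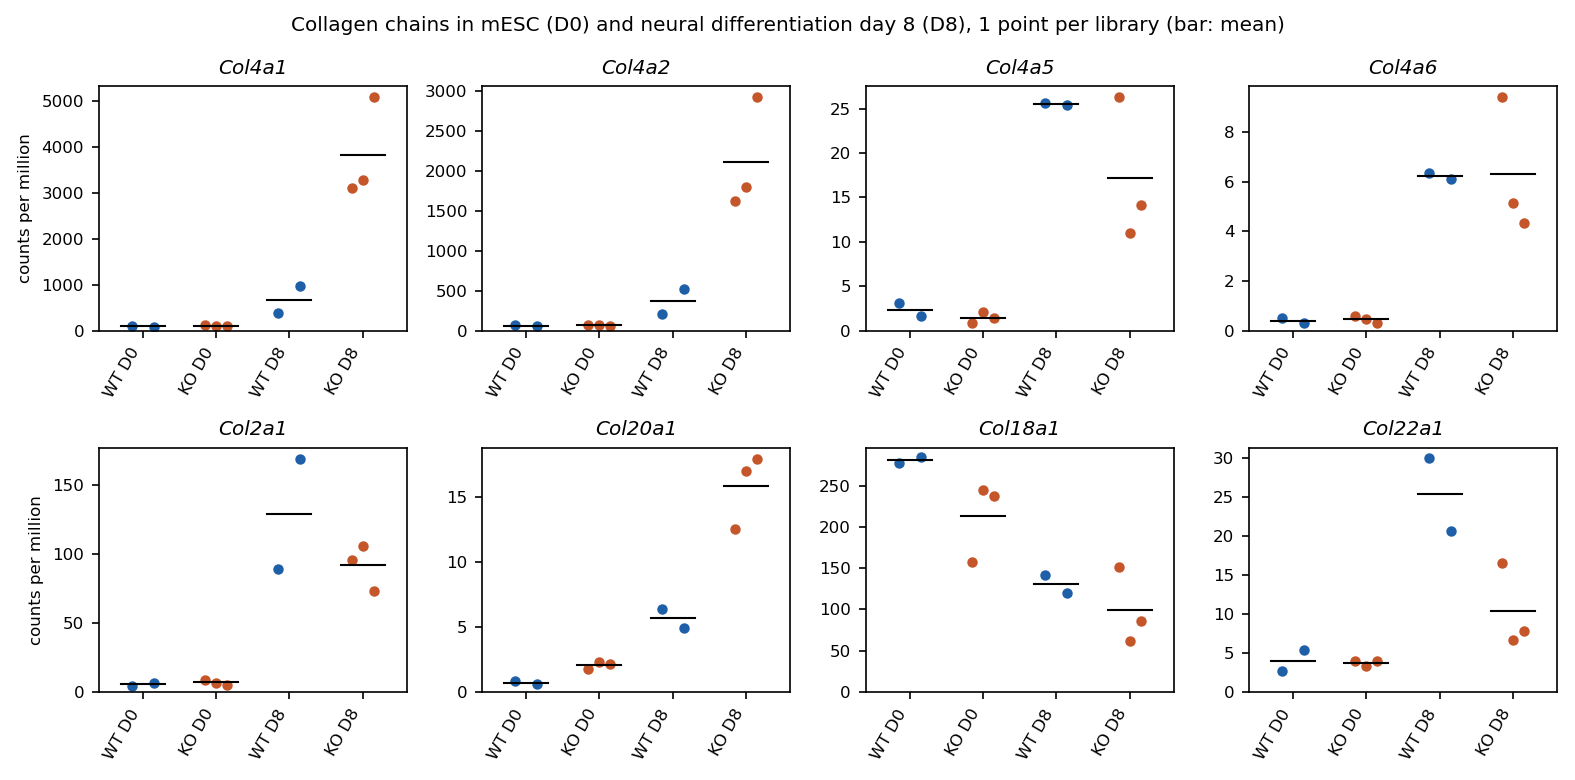
Levels of 8 collagen chains in CPM (y axis from 0, own scale in each panel) in the 4 cell groups (x axis). Each point is 1 library, blue for WT and orange for KO, and the bar is the mean. Col4a1 and Col4a2 are higher in every KO D8 library than in either WT D8 library, while Col4a5 and Col4a6 rise in both lines.

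Enzymes that modify collagen chains were also higher. Of 15 tested, 11 were higher in KO than in WT at D8 and none was lower, against the 12.5% and 8.24% of all genes given above. P4ha2, a subunit of the proline hydroxylase, was 290, 882 and 928 CPM in KO and 77.6 and 100 CPM in WT (2.97 ± 0.45 on the log2 scale, adjusted p = 0.00243). Plod1, a lysine hydroxylase, was 65.6, 86.7 and 124 CPM against 18.5 and 28.5 CPM (1.96 ± 0.28, adjusted p = 0.00195). Colgalt1, which adds galactose to the hydroxylysines, and P3h4, which supports lysine hydroxylation, differed by 1.26 ± 0.20 (adjusted p = 0.00278) and 1.63 ± 0.28 (adjusted p = 0.00366). P4ha3, at -0.03 ± 0.66, and P3h2, at 1.23 ± 0.49 (adjusted p = 0.0919), did not pass. At D0 none of the 15 was called between KO and WT. Over differentiation 7 of the 15 rose and 3 fell in WT, and 12 rose and 1 fell in KO, against 27.9% and 29.3% of all genes in WT and 33.4% and 31.1% in KO. For 7 of the 15, against 3% of all genes, the difference between KO and WT was larger at D8 than at D0 by the test of the difference. Colgalt1 belonged to these, falling from 241 and 233 CPM to 99.2 and 107 CPM in WT while KO went from 180 to 205 CPM to 180 to 307 CPM.

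Of 9 tested chaperone and export genes, 3 were higher in KO at D8 and none was lower, to be read, as the other lists here, against 12.5% of all genes higher and 8.24% lower. Serpinh1 was 588, 728 and 1028 CPM in KO and 269 and 375 CPM in WT (1.28 ± 0.24, adjusted p = 0.00579). Sparc was 1518, 2785 and 3397 CPM against 236 and 494 CPM (2.81 ± 0.38, adjusted p = 0.00155), and Fkbp14, a folding enzyme, differed by 1.41 ± 0.24 (adjusted p = 0.00366). Fkbp10 and Mia3, an export receptor, did not pass (1.20 ± 0.49 and 0.14 ± 0.16). Of 13 propeptide and crosslinking genes, Loxl2, a lysyl oxidase that crosslinks type IV collagen, was the 1 called, a share below that over all genes, at 142, 192 and 281 CPM against 62.5 and 104 CPM (1.29 ± 0.31, adjusted p = 0.0146). Bmp1 and Tll1 did not pass. On the receiving side, 3 of 7 tested receptors were lower in KO and none was higher. These were Adgrg1 (28.3 to 42.1 CPM against 96.4 and 126 CPM, -1.61 ± 0.19, adjusted p = 0.00116), the collagen-activated kinase Ddr1 (98.6 to 121 CPM against 166 and 208 CPM, -0.75 ± 0.18, adjusted p = 0.0166) and Mrc2 (-0.88 ± 0.24, adjusted p = 0.0271). Of 6 collagen-cutting enzymes and their inhibitors, the inhibitor Timp1 was the 1 called higher, a share near that over all genes (8.88, 26.2 and 17.7 CPM against 2.81 and 3.43 CPM, 2.48 ± 0.41, adjusted p = 0.00309).

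**Figure D5:**
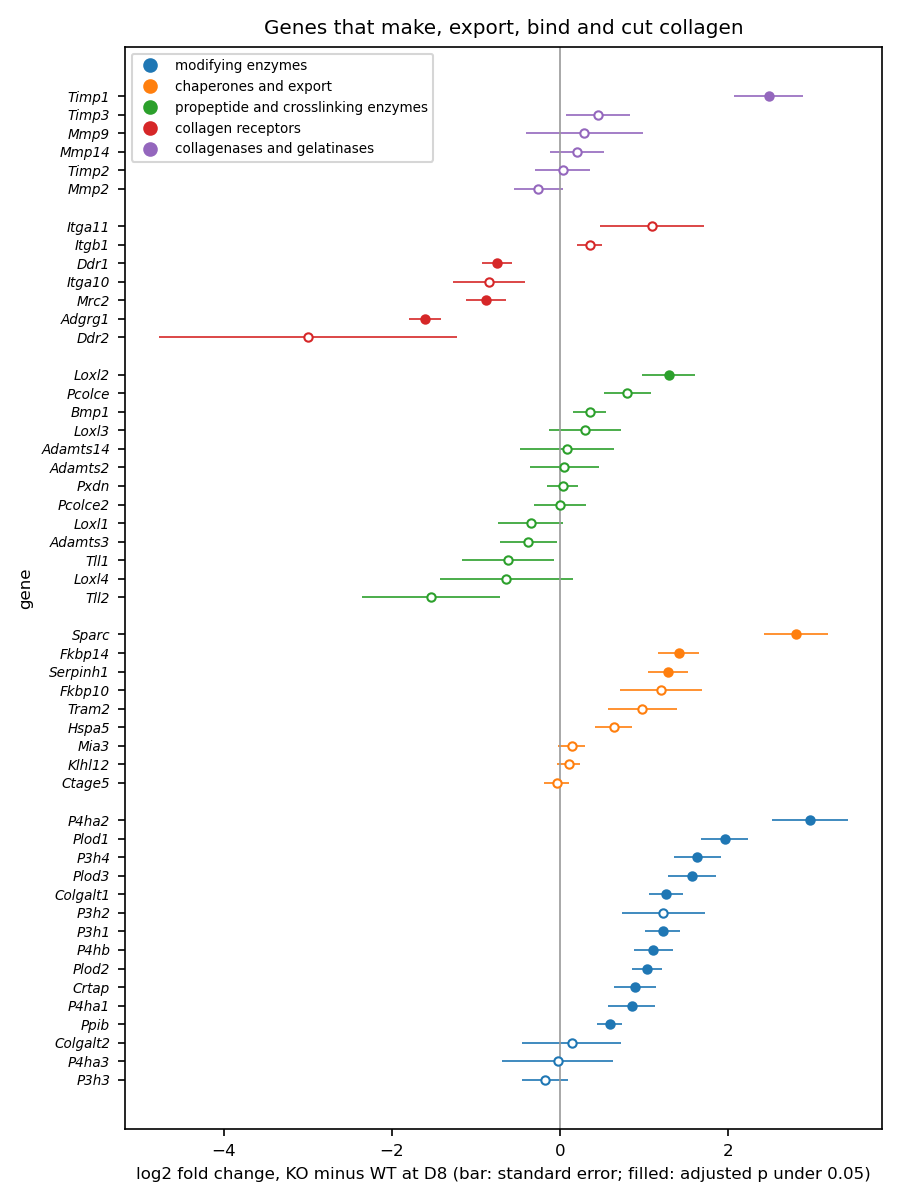
Log2 fold change, KO minus WT at D8 (x axis), of 50 genes that make, export, process, bind or cut collagen (y axis, grouped by list and colored as in the key). Bars are standard errors and filled points passed the adjusted p threshold of 0.05. Of the 15 modifying enzymes at the bottom, 11 are filled and to the right of 0.

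Marker genes of other cells also differed between KO and WT at D8. The parietal endoderm list summed to 2918, 4937 and 6107 CPM in KO D8, to 464 and 872 CPM in WT D8 and to 389 to 499 CPM at D0. All 6 of its genes were higher in KO than in WT at D8, from Plat at 1.40 ± 0.35 (adjusted p = 0.0187) to Lamb1, a laminin chain of basement membranes, at 2.91 ± 0.32 (adjusted p = 0.00101). Thbd was 13, 51.1 and 75.9 CPM in KO D8 and 2.81 and 11 CPM in WT D8. The order of the KO libraries was that of Col4a1, with replicate 3 highest and replicate 1 lowest, and WT replicate 2 exceeded WT replicate 1 in both. The visceral endoderm list summed to 34.8 to 55.6 CPM in KO D8 and 12 and 12.1 CPM in WT D8, with Afp and Apoa1 under 1 CPM and Ttr at 6.87 to 26.2 CPM in KO. The embryonic mesoderm list summed to 155 to 257 CPM in KO D8 and 61.2 and 37.2 CPM in WT D8. Of its genes Snai1 (3.15 ± 0.34, adjusted p = 0.000904) and Pdgfra (2.42 ± 0.28, adjusted p = 0.00106) were called higher, and T and Mixl1 did not pass. The naive stem cell and decidua lists were also higher in KO D8. The neural progenitor, neural crest and fibroblast lists were lower, and the lists not named here overlapped. The neuron list, 5 genes, summed to 185 to 404 CPM in KO D8 and 945 and 1391 CPM in WT D8, and all 5 genes were lower. The part of these cells in the collagen results was not tested. Some whole chromosomes were shifted between KO and WT on both days. The median KO minus WT log2 fold change over the tested genes of a chromosome was 0.47 at D0 and 0.50 at D8 on chromosome 14, 0.30 and 0.45 on chromosome 6, which holds Col1a2, and 0.20 and 0.23 on chromosome 11, which holds Col1a1 and Col23a1. On chromosome 8, which holds Col4a1 and Col4a2, it was -0.15 and -0.06. On the X chromosome, which holds Col4a5 and Col4a6, it was -0.18 at D0 and -0.01 at D8. The part of these shifts in the chain values was not tested.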

How the data were processed

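Of the 120 samples of the series, the 28 RNA libraries were used and the others were not analysed here. Embryo libraries were made with Nextera XT after guanidine thiocyanate extraction, and cell libraries with a NEBNext kit after Trizol, per the labels' protocols. Each table holds whole-number read counts for 23154 gene rows, as deposited by the authors. CASAVA 1.8, TopHat2 2.0.9, BWA and the build mm10 appear in the submitters' processing notes. How reads were counted, and whether by strand, is not given in the sources used here. Genes that overlap, such as Col4a1 and Col4a2 at their starts, may therefore share counts.

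Columns were matched to samples by name, and 6 embryo columns that match no sample were not used. Of the gene names for cells, 27 had turned into dates. Replicates differed by a chi-square per degree of freedom of 3.78 to 135, so none counted as a copy. Genes passing filterByExpr (minimum count 10, minimum total 15) entered 1 quasi-likelihood fit per table over all groups (edgeR 4.0.16, R 4.3.3, robust, TMM) without a replicate block, and 14 comparisons were drawn. The fit was tested on simulated counts. Alternatives were DESeq2 1.42.0, its size factors, total counts, no filter, a replicate block and leaving out each library, where a lone library is assumed to vary like the other groups. Where a side held at most 3 counts no fold is read, and none is given apart from the Col24a1 value that changed sign.

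Members, lists, comparisons and alternatives were chosen with earlier results of these data known. Any chain could be named for its level, and in a comparison up to 12 called chains by smallest p and 4 of their family that did not pass. Each other list gave at most 4 called genes, by smallest p, and its first 2 genes not called.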

Additional observations from a re-analysis of the deposited data

Results flagged for a closer look

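The change of Col4a1 with the KO label differed between days, by a test of the difference itself: the KO minus WT log2 fold change was larger at D8 than at D0 by 2.24 ± 0.50 (adjusted p = 0.0321). For Col4a2 the same difference was 2.37 ± 0.51 (adjusted p = 0.0281). Both calls were lost without any of 8 of the 10 libraries (adjusted p = 0.0538 to 0.130) and with no filter on low counts (0.084 and 0.0748). The parietal endoderm list, at 2918 to 6107 CPM in KO D8 and at most 872 CPM elsewhere in the cells, moved with them. The embryonic mesoderm list was also highest in KO D8, at 155 to 257 CPM against at most 61.2 CPM elsewhere in the cells. Within WT D8 it went the other way, at 61.2 and 37.2 CPM where Col4a1 was 374 and 969 CPM. Of its genes, Snai1 and Pdgfra were called higher in KO at D8, and T and Mixl1 did not pass. The part of these lists was not tested.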

How the results depend on the processing

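Of 68 calls of collagen chains, 40 passed under every alternative run and 28 were lost under at least 1. The value that changed sign was Col24a1 at E7.0, -0.57 without E7.0 ExE replicate 2 (6.02 without E7.0 P replicate 1). The ExE side then held at most 3 counts (0.109 CPM in replicate 1), too few for a fold to be read. The -0.57 therefore records a lost call and is no evidence of a fall in ExE. With 1 library left out, chains called ranged from 1 to 4 for E6.5 ExE against Epi (5 with all), 3 to 9 for ExE at E7.0 (9), 3 to 7 for ExE at E7.5 (6), 0 to 2 for AM against A (1), 15 to 19 for WT over time (21), 19 to 21 for KO over time (20), 3 to 7 for KO against WT at D8 (4) and 0 to 3 for the difference of the KO changes (2). In these comparisons the number of all genes called moved with the library left out as well. For AM against A, DESeq2, no filter and the replicate block each called 2 chains. DESeq2 called 1 chain for AM against P, 3 for E7.5 against E6.5 ExE and 1 for the E7.5 regions against Epi, and no filter called 1 for AM against P, 2 for ExE over time and 0 for the difference of the KO changes, for which total counts called 1. Scaling by total counts moved the median log2 fold change of all genes by -0.45 to 0.44 in embryos and -0.25 to 0.30 in cells and reversed no collagen call but ended 8, those of Col18a1 at E6.5 (adjusted p = 0.0527), Col9a1, Col2a1 and Col23a1 at E7.0 (0.0595, 0.102 and 0.128), Col4a1 at E7.5 (0.0562), Col18a1 and Col9a2 over time in WT (0.0982 and 0.11) and Col4a1 in the difference of the KO changes (0.0506). It moved the share of higher among all called genes from 41.3 to 63.2% for ExE at E6.5, 55.1 to 69.7% at E7.0, 62.9 to 44.5% at E7.5, 48.8 to 62.5% for WT over time, 60.3 to 37.7% for KO against WT at D8, 52.1 to 27% for the difference of the KO changes, 85.3 to 50% for P against A at E7.5, 37.5 to 90.9% for AM against P and 40.6 to 69% for the E7.5 regions against Epi. The labels give same-numbered libraries no shared source, so the numbers were not used to pair samples. Deviations of same-numbered libraries correlated from -0.10 to 0.56 in embryos, with 40 of 72 over 0.1, and from -0.04 to 0.17 in cells, and 1 of 3 KO D0 libraries correlated best with its own number at D8. In groups of 2 libraries the deviations mirror each other, so each embryo value is listed once per replicate number and the 72 are not independent. As a hint from the data, embryo libraries of some groups thus deviate together by number. With the replicate block, Col24a1 at E7.0 was 3.99 (adjusted p = 0.055) and Col22a1 at D8 -1.25 (adjusted p = 0.0601). The cause of these shifts was not tested. Pairs of libraries at 5.15 to 17.1 M counts limit what can be called for chains of a few CPM.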
